A study of Danio rerio with 2 samples.

Results

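Skin ionocytes are the cells of the larval zebrafish epidermis that take up salt and calcium from the water and secrete acid. The 10 genes described here were chosen by name as genes of these cells: the fate factors *foxi3a*, *foxi3b* and *gcm2*, and the transport genes *trpv6*, *slc12a10.2*, *slc9a3.2*, *atp1a1a.4*, *ca2*, *ca15a* and *atp6v1aa*. They were found through the RefSeq accession of each array probe and are 10 of the 12858 genes that could be named in this way. Together they had 17 probes. Total RNA of zebrafish at 3 dpf was read on 2 one-colour Agilent arrays. The control array held larvae injected with 8 ng of a control morpholino (Ctrl MO), and the morphant array held larvae injected with 8 ng of *miR-132* MO, an antisense oligonucleotide against the mature microRNA *miR-132*, which is known from neurons. In both groups the chorion was taken off with pronase at 1 dpf and the animals were kept in dilute Hanks' solution, which holds sodium, chloride, calcium and bicarbonate, and to which phenylthiourea was added against pigment. The labels give the tissue as embryos, so the skin is only a part of the RNA. The strain of these embryos and the number behind each array are not given in the sources used here, and the level of the microRNA itself was not analysed here.

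An ionocyte arises from an epidermal progenitor that escapes lateral inhibition by Notch signalling and turns on forkhead factors of the Foxi3 kind. It then matures into one of several subtypes, each with its own set of pumps, channels and exchangers. Acid-secreting cells are rich in the proton pump (V-ATPase), calcium-absorbing cells carry the channel Trpv6 and a high level of the sodium pump (Na,K-ATPase), and chloride-absorbing cells carry a sodium-chloride cotransporter of the Slc12a10 family. Several of these genes are not confined to ionocytes, since the kidney tubule uses related pumps and exchangers and the V-ATPase acidifies vesicles in every cell.

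Since each group was 1 array, there was no replicate error, and every value below is a description without a p-value. Levels are processed intensities in arbitrary units, before scaling. Ratios are log2 of morphant over control after each array was set relative to the 75th percentile of its own intensity. That percentile was 731 for the control array and 866 for the morphant array, so equal intensities give a ratio below 0. In controls 88.0% and in morphants 80.3% of the transcript spots were well above background, and 0 were saturated. The 153 negative-control spots had an SD of 2.98 in controls and 17.2 in morphants, so dim genes were read less surely in morphants. Probes printed on 5 spots each were used for spot noise where every spot was well above background on both arrays. Among these 26 probes, the median SD of the log2 ratio between spots was 0.10. For the 12 of these with an intensity under 150 it was 0.20, and the highest was 0.68. These values cover spot noise only.

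The fate factors lay near 0 (-0.09 to 0.10). Of the transport genes, *slc12a10.2* was 1.90-fold lower in morphants, *ca2* was at 1.48-fold lower and *atp1a1a.4* at 1.34-fold lower, and the others were nearer to 0. Of the 9 genes with a ratio, 1 was at least 1.5-fold lower, *slc12a10.2*, and 0 were at least 1.5-fold higher. Over all 12052 genes with a ratio, 8.02% were at least 1.5-fold lower and 4.08% at least 1.5-fold higher, so a count of 1 is near the background. At 2-fold, 0 of the 9 genes passed in either direction, against 3.48% of all genes lower and 1.05% higher. Counted by probes, 4 of the 16 with a ratio (25%) were at least 1.5-fold lower and 0 higher, against 8.7% and 5.55% of all probes. These 4 belonged to only 2 genes, *slc12a10.2* and *ca2*. The ratio was below 0 in 6 of the 9 genes and above 0 in 3, while 51.1% of all genes were below 0. With 1 array per group, an effect of the morpholino cannot be told from other differences between the samples or arrays. In RNA of whole embryos, fewer ionocytes, less RNA per ionocyte and a change in other cells with these transcripts cannot be told apart either.

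**Figure D1:**
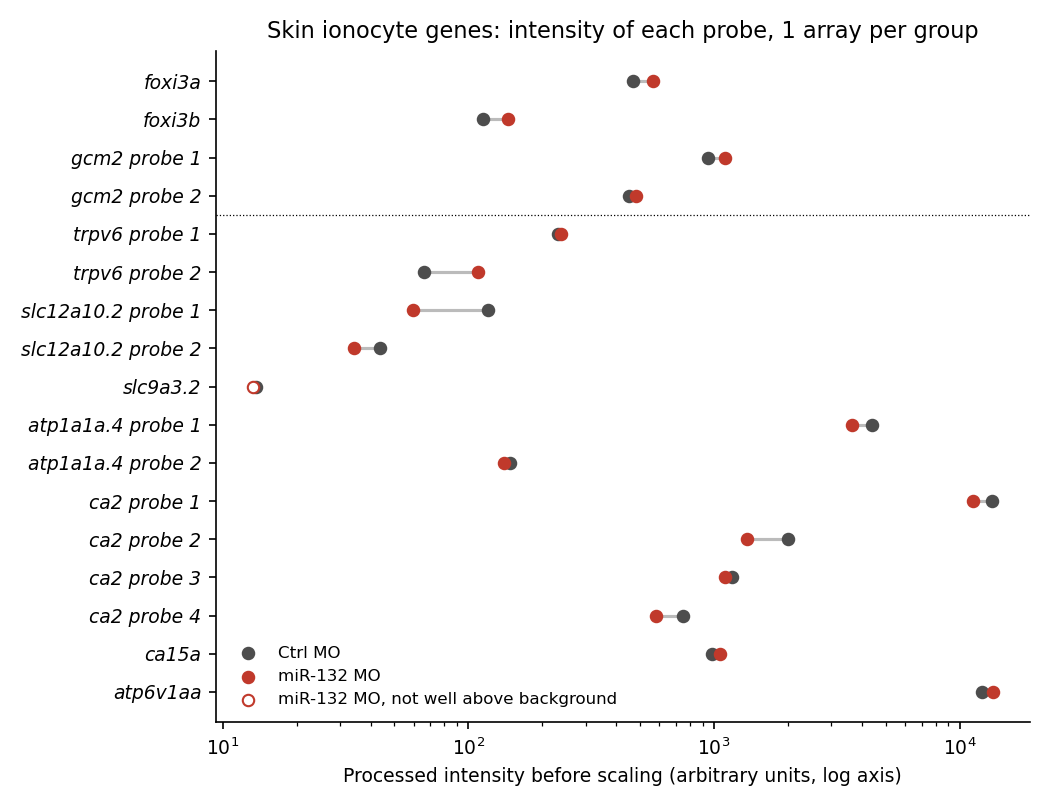
Processed intensity of the 17 probes (log axis, arbitrary units, before scaling) on the Ctrl MO array (grey) and the *miR-132* MO array (red), with the probes of a gene numbered from the brightest down and an open circle for a spot not well above background. Both probes of *slc12a10.2* were dimmer in morphants although the 75th percentile of that array was higher (866 against 731).

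The forkhead genes *foxi3a* and *foxi3b* drive progenitors toward the ionocyte fate. The single probe of *foxi3a* (gene 387257) read 468 in controls and 565 in morphants, which gave a log2 ratio of 0.03. That of *foxi3b* (gene 387258) read 114 in controls and 145 in morphants, which gave 0.10. Neither ratio exceeded the spot SD of 0.10, and normexp background correction, an alternative that models the background of each array, put *foxi3a* at 0.15 and *foxi3b* at -0.04. The transcription factor gene *gcm2* (gene 449615) is required for acid-secreting ionocytes and is also active in the pharyngeal arches. Its brighter probe went from 944 to 1108, and its dimmer probe from 453 to 481. The log2 ratios of these probes were -0.01 and -0.16, with a mean of -0.09. The median of the 3 fate factors was 0.03, against -0.01 for all genes.

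Among the transport genes, *slc12a10.2* (gene 562834), which encodes the sodium-chloride cotransporter of chloride-absorbing ionocytes, had the lowest ratio. Its brighter probe fell from 120 in controls to 59.6 in morphants, at a log2 ratio of -1.25. Its dimmer probe fell from 43.8 to 34.3, at -0.60. Both probes were well above background in both samples, and both were past 1.5-fold. The mean log2 ratio of -0.93 corresponds to a level 1.90-fold lower, and 3.92% of all genes had a ratio as low or lower. The probes differed by 0.66, and both lay in the range of intensity where the spot SD was 0.20. With normexp background correction the mean was -0.51, which is under 1.5-fold, and with the brighter probe alone it was -1.25.

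Carbonic anhydrase hydrates carbon dioxide and supplies the protons and bicarbonate that ionocytes exchange. The cytosolic enzyme gene *ca2* (gene 387526) had 4 probes. Their intensity went from 13511 to 11333, from 2001 to 1357, from 1179.6 to 1110.1 and from 750.1 to 578, so each was dimmer in morphants. The log2 ratios were -0.50, -0.81, -0.33 and -0.62 in the same order. Their mean was -0.56, or 1.48-fold lower, just under 1.5-fold, with 2 of the 4 probes past it. This mean was 5.48 times the spot SD in size, and the range of the 4 probes was 4.59 times it. The spot SD covers neither the spread between probes nor that between samples. The membrane-linked enzyme gene *ca15a* (gene 553469), which marks acid-secreting ionocytes, went from 980 to 1056 on its single probe, at a log2 ratio of -0.14.

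The sodium pump gene *atp1a1a.4* (gene 64615) encodes one of several closely related alpha subunits. Its brighter probe read 4387 in controls and 3634 in morphants, and its dimmer probe 147 and 139.8. The log2 ratios were -0.52 and -0.32, with a mean of -0.42, or 1.34-fold lower. Both probes thus pointed the same way, and neither reached 1.5-fold.

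The remaining transport genes were nearer to 0 or had no ratio. The epithelial calcium channel gene *trpv6* (gene 100000322), of calcium-absorbing ionocytes, had probes on either side of 0. The brighter read 231 in controls and 239 in morphants, at -0.20, and the dimmer read 66.2 and 109, at 0.48. The mean was 0.14, so its sign rested on the dimmer probe. The proton pump gene *atp6v1aa* (gene 394110) encodes the catalytic A subunit, which is abundant in acid-secreting ionocytes. It went from 12292 to 13640, at a log2 ratio of -0.10. The sodium-proton exchanger gene *slc9a3.2* (gene 568314), which acts at the apical side of acid-secreting ionocytes, had no ratio. Its single probe read 13.7 in controls, where the spot was well above background, and 13.3 in morphants, where it was not. The lowest intensity well above background was 7.17 in controls and 16.8 in morphants, so 13.3 could not be told from background. Of the 10 genes it was the only one without a spot well above background in morphants, and in controls each gene had one.

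**Figure D2:**
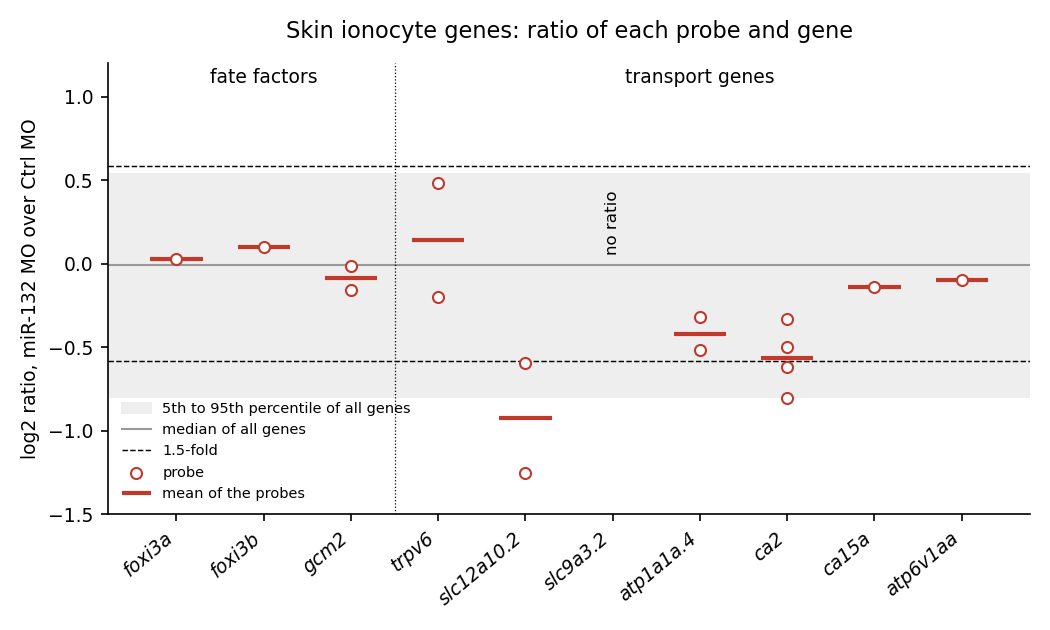
Log2 ratio of *miR-132* MO to Ctrl MO for each probe (circles) and the mean of a gene's probes (bars), with the 5th to 95th percentile of all genes shaded and 1.5-fold dashed. The 3 fate factors lie between -0.09 and 0.10, while *slc12a10.2* at -0.93 is the only gene of the 10 past 1.5-fold and lies below the shaded band, which ends at -0.80.

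The transport genes were then set beside the fate factors. The 6 transport genes with a ratio had a median of -0.28, with a range from -0.93 to 0.14, and 5 of them were below 0. The difference between this median and that of the 3 fate factors (0.03) was -0.30 on the log2 scale. The groups overlapped, since *trpv6* lay above every fate factor and *atp6v1aa* lay next to *gcm2*. Of the 10 alternative settings, 4 left the difference as it was, among them those that shift all genes alike. In the other 6 it was below 0, from -0.37 with the brightest probe of each gene to -0.18 with normexp background correction. In 3 of these, normexp among them, *slc9a3.2* also entered the median of the transport genes. As a sum over probes in units of the 75th percentile, the intensity of the transport genes was 48.9 in controls and 38.4 in morphants, and that of the fate factors 2.71 and 2.65. The sum of the transport genes is mostly that of their brightest probes. The 4 probes of *ca2* made up 23.9 in controls and 16.6 in morphants, and those of *slc12a10.2* 0.22 and 0.11. The sum without *ca2* was 25.01 and 21.8. Its brightest probe was that of *atp6v1aa*, at 12292 in controls and 13640 in morphants before scaling.

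The close relatives of these genes did not share 1 direction. The genes *slc12a10.1*, *slc12a10.2* and *slc12a10.3* are neighbours in the reference table, with 0 other coding genes between them. *slc12a10.3* had a pair of probes with a ratio, which went from 104 to 52.8 and from 43.6 to 50.5. Their log2 ratios were -1.22 and -0.03, with a mean of -0.63, which normexp background correction moved to -0.36. Another of its 4 probes read 12.8 in controls and 3.50 in morphants, where it was not above background. The last was above background in neither sample. The single probe of *slc12a10.1* read 9.09 in controls and 4.04 in morphants, where it was not above background. The exchanger gene next to *slc9a3.2*, *slc9a3.1*, was not above background in either sample.

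The 5 *atp1a1a* genes are likewise neighbours with 0 other coding genes between them, and ionocyte subtypes differ in which of these alpha subunits they use. *atp1a1a.3* fell from 1372 to 868 on its single probe, at a log2 ratio of -0.91. *atp1a1a.1* was at -0.31, with its probes at -0.55 and -0.06. *atp1a1a.2* was at 0.24 and *atp1a1a.5* at 0.05, so *atp1a1a.4* at -0.42 had 2 relatives below 0 and 2 above. Whether a probe of one gene in these families also binds RNA of its neighbours was not tested.

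Of the *ca15* genes, *ca15c* was at -0.35, with its probes going from 41.4 to 41.3 and from 30.5 to 26.3. *ca15b* had 5 of its 6 probes above background in neither sample, and the last, from 9.39 to 17.2, gave a log2 ratio of 0.62 that was 0.00 with normexp. The forkhead gene *foxi1*, a relative that acts in the inner ear and pharyngeal arches, was at -0.14 and *foxi2* at 0.15.

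**Figure D3:**
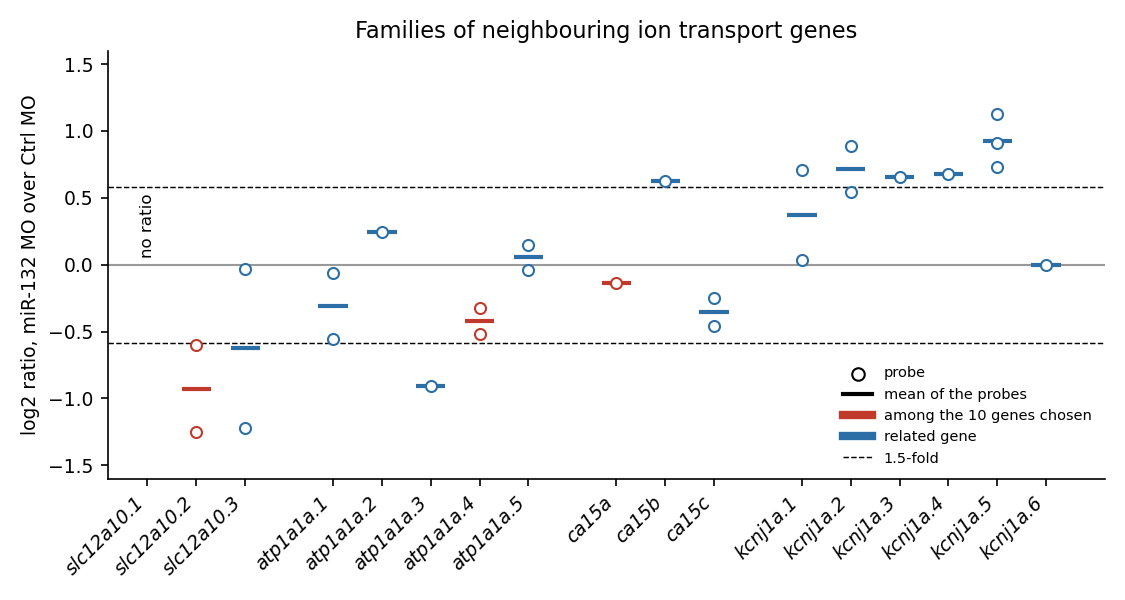
Log2 ratio of each probe (circles) and gene (bars) in 4 families of neighbouring genes, with the genes of the 10 in red, their relatives in blue and 1.5-fold dashed. The *slc12a10* genes with a ratio lie below 0 (-0.93 and -0.63), the *atp1a1a* genes on both sides, and *kcnj1a.1* to *kcnj1a.5* above 0 (0.37 to 0.92). *kcnj1a.6* is shown at its bound and *slc12a10.1* has no ratio.

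Other genes listed for transport in ionocytes, a few of them not transporters themselves or known also from other cells, went in both directions. Of 35 such genes listed, 25 had a probe and 22 a ratio, of which 6 were at least 1.5-fold higher (27.3%, against 4.08% of all genes) and 2 at least 1.5-fold lower (9.09%, against 8.02%), with a median of 0.08. Of the 6 that were higher, 4 were *kcnj1a* genes. The *kcnj1a* genes encode potassium channels of the ROMK kind, which potassium-secreting ionocytes carry, and the 6 of them are neighbours. *kcnj1a.5* was 1.90-fold higher, with its probes rising from 767 to 1506, from 116 to 258 and from 70.1 to 182. *kcnj1a.2* rose from 189 to 327 and from 151 to 331, a mean log2 ratio of 0.71. *kcnj1a.3* and *kcnj1a.4* were at 0.66 and 0.68 with 1 probe each, and *kcnj1a.1* was at 0.37 with its probes at 0.71 and 0.04. *kcnj1a.6* read 16.3 in controls and 19.3 in morphants, where it was not above background. Normexp put *kcnj1a.5* at 0.72, *kcnj1a.4* at 0.33 and *kcnj1a.3* at 0.13. That setting also differed in its offset of 50 and its use of the median signal. Which of these moved the ratios was not tested. With its brighter probe alone *kcnj1a.2* was at 0.54.

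Outside that family, *rhcga*, which encodes an ammonia channel of the Rhesus family, rose on each of its 3 probes, from 462 to 1331, from 33.7 to 113 and from 12.7 to 34.4, at a mean log2 ratio of 1.32. The sodium-proton exchanger gene *slc9a1b*, outside the naming rule and named after its value was seen, was at 0.63. The anion exchanger gene *slc26a3.2* was 5.27-fold lower, from 356 to 80.0 on its single probe. With normexp *rhcga* was at 0.75 and *slc26a3.2* was 2.83-fold lower.

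For the genes that specify ionocytes, other than the 3 described above, 24 were listed (Notch ligands and receptors, *tp63*, *klf4* and other epidermal factors). Of these, 20 had a ratio, 13 were above 0, and 0 were past 1.5-fold in either direction, with a median of 0.14. Over all genes, 4.08% were higher and 8.02% lower at that fold. The highest was the Notch receptor gene *notch1a* at 0.55 (probes at 0.27 and 0.82), named after its value was seen, and the lowest was *foxi1*.

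The subunits of both pumps had medians below that of all genes. These lists and that of the carbonic anhydrases are not separate from the transport genes. They include *atp1a1a.4*, *atp6v1aa*, *ca2* and *ca15a*. Of 18 Na,K-ATPase subunit genes with a ratio, 4 were at least 1.5-fold lower (22.2%, against 8.02% of all genes) and 0 higher, with a median of -0.30. Besides *atp1a1a.3*, these were *fxyd7* at -1.04, *atp1a3b* at -0.91 and *fxyd6* at -0.69. The alpha3 subunit is known as the neuronal form of the pump, and Fxyd proteins are small regulators of it. Of 18 V-ATPase subunit genes with a ratio, 16 were below 0, with a median of -0.22. At least 1.5-fold lower was 1 (5.56%, against 8.02% of all genes). That gene, *atp6v0cb*, a subunit of the membrane sector of the pump, was at -0.59 and was named after its value was seen. *atp6v1aa*, at -0.10, was nearer to 0 than the median of its complex, but not with normexp, where it was at -0.22 and the median at -0.18. Of 11 carbonic anhydrase genes with a ratio, 1 was higher (*ca15b*) and 1 lower at 1.5-fold, with a median of -0.25. Each is 9.09% of the 11, against 4.08% of all genes higher and 8.02% lower. The lower gene was *ca4b*, a membrane-anchored enzyme, which fell from 831 to 210.4 and from 705 to 189, or 4.56-fold.

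Hormones that set mineral uptake were read as well. Of 31 hormone and receptor genes listed, 24 had a ratio, with a median of -0.02. At least 1.5-fold higher were 4 (16.7%, against 4.08% of all genes), and 5 were at least 1.5-fold lower (20.8%, against 8.02%). Parathyroid hormone raises calcium uptake, and *pth1b* was 4.69-fold higher, from 36.7 to 215.7 and from 18.6 to 97.9, and 2.12-fold higher with normexp. *pth1a* rested on 1 probe, which was not above background in controls at 6.72 and read 25.95 in morphants, or at least 3.05-fold higher. With normexp it was at 0.06. Stanniocalcin holds calcium uptake back, and of its genes *stc1l* was 2.35-fold higher, from 343 to 953 on its single probe. The related *stc1* at -0.24 and *stc2a* at -0.11, named after their values were seen, were under 1.5-fold. The prolactin receptor gene *prlrb* was 1.75-fold higher, from 67.5 to 139.6, and at 0.29 on the log2 scale with normexp. Among the lower genes, the isotocin gene *oxt* was at -1.34, the mineralocorticoid receptor gene *nr3c2* at -0.81, the vitamin D-degrading enzyme gene *cyp24a1* at -0.78 and the corticotropin-releasing hormone gene *crhb* at -0.65. The fifth, *pth2*, was at least 1.73-fold lower, with 1 of its 2 probes past 1.5-fold and the other not above background in morphants, and was named after its value was seen. The single probe of *nr3c2* was dim, at 38.7 in controls and 26.1 in morphants. With normexp *nr3c2* was at -0.33 and *crhb* at -0.37.

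**Figure D4:**
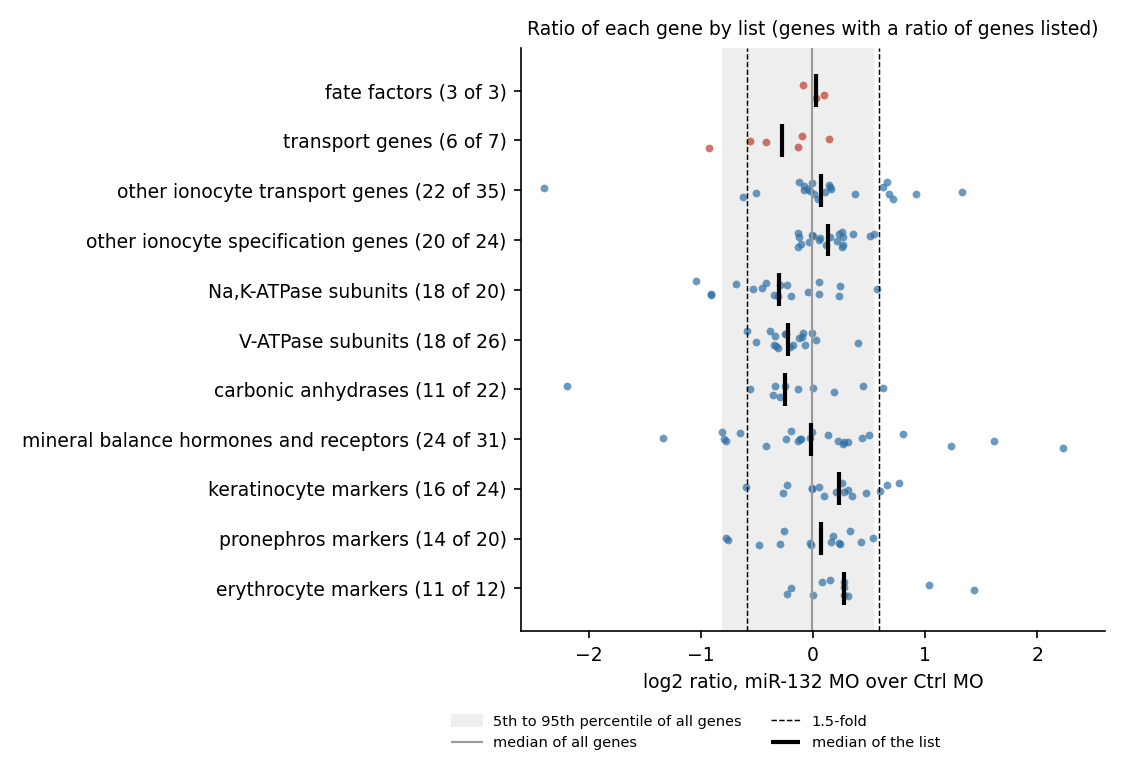
Log2 ratio of each gene (points) by list, with the list median as a black bar, the 5th to 95th percentile of all genes shaded and 1.5-fold dashed. The medians of the transport genes (-0.28), Na,K-ATPase subunits (-0.30), V-ATPase subunits (-0.22) and carbonic anhydrases (-0.25) lie below that of all genes (-0.01), and those of the fate factors (0.03) and keratinocyte markers (0.23) above it.

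Markers of other cells in the same RNA were set beside these genes. Keratinocytes make up most of the epidermis around the ionocytes. Of 24 keratinocyte markers, 16 had a ratio and 11 of these were above 0, with a median of 0.23 and a summed intensity, in units of the 75th percentile, of 2259 in controls and 2809 in morphants. Past 1.5-fold were 3 higher (18.75%, against 4.08% of all genes) and 1 lower (6.25%, against 8.02%), named after their values were seen. The higher were the keratin genes *krt5* at 0.77 (probes 0.09 to 1.53) and *krt4* at 0.66 (probes -0.15 to 1.17) and the annexin gene *anxa1c* at 0.59 (probes 0.36 to 0.82). The lower was the periplakin gene *ppl* at -0.59 (probes -0.69 to -0.50). Of 20 pronephros markers, 14 had a ratio and 7 lay on either side of 0, with a median of 0.07 and a summed intensity of 19.4 in controls and 18.1 in morphants. At least 1.5-fold lower were 2 of these (14.3%, against 8.02% of all genes), and 0 were higher. Named in the same way, they were the transcription factor gene *hnf1ba* at -0.76 (probes -1.17 to -0.43) and the sulfate transporter gene *slc13a1*. The latter was at least 1.72-fold lower (probes -1.25 to -0.31), with 1 of its 2 probes not above background in morphants. Of 12 erythrocyte markers, 11 had a ratio, 8 of them above 0 and 3 below. Their median was 0.27, and their summed intensity was 820.1 in controls and 863 in morphants. The anion exchanger gene *slc4a1a* at 1.43 and the heme synthesis gene *alas2* at 1.04 were at least 1.5-fold higher (18.2%, against 4.08% of all genes). In the other direction 0 were past 1.5-fold. The globin genes *hbae1.1*, *hbae3* and *hbbe2*, named after their values were seen, were at 0.15, -0.004 and -0.20. The part of these cells in the values of the ionocyte genes was not tested.

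The 9 genes with a ratio moved to different extents with the scaling, the background correction and the choice of probe. Over the 10 alternatives *ca2* stayed between -0.58 and -0.49, *atp1a1a.4* between -0.52 and -0.31 and *slc12a10.2* between -1.25 (brightest probe) and -0.51 (normexp). *foxi3a* stayed between 0.01 and 0.15 and *foxi3b* between -0.04 and 0.17.

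**Figure D5:**
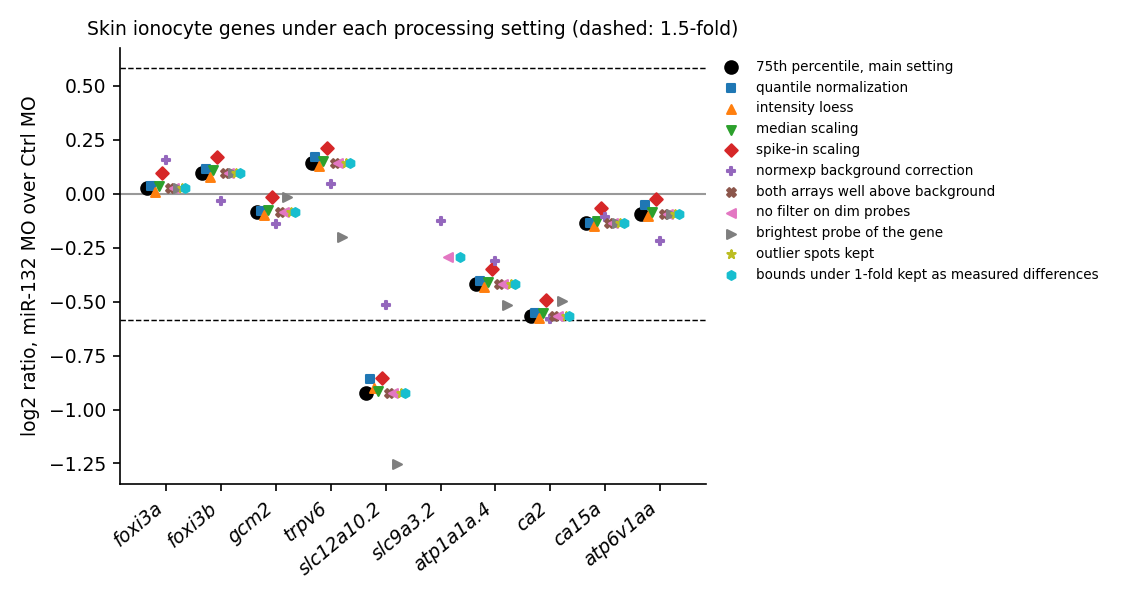
Log2 ratio of each of the 10 genes under the main setting (black, 9 genes) and 10 alternatives (colours), with 1.5-fold dashed. *slc12a10.2* is past 1.5-fold in each setting except normexp background correction (-0.51). *slc9a3.2* has a value in only 3 settings, as a bound with normexp and as the measured difference in the others.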

How the data were processed

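Total RNA of 1 Ctrl MO and 1 *miR-132* MO sample was hybridised to 1 one-colour (Cy3) Agilent array each. Groups came from the sample labels. The authors deposited the spot intensity as written by Agilent Feature Extraction 10.7, background-subtracted within the array and not normalized between arrays. A rounded copy of these values and the authors' table of selected probes, with their normalized values and ratios, were not used.

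Log2 processed intensity was taken relative to the 75th percentile of the transcript spots of each array, and spots of a probe, then probes of a gene, were averaged. Left out were 9 probes with an outlier spot, 5066 above background on neither array and 1751 above background on 1 array only whose bound was under 1-fold, which left 36779 of 43603, since a few probes met more than 1 of these criteria. Where 1 array only was above background, a bound was computed with the dim side at its own intensity or at the lowest one above background there, whichever was higher. Probes were named through RefSeq accessions without versions and the NCBI gene table of GRCz12tu, which matched 25069 probes. Since the array design was annotated on Zv8, no positions are printed, and no sequence was used here.

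The genes and lists were chosen with earlier results of these data known. Named are the 10 genes, their families and, per list, up to 4 genes in each direction with every probe past 1.5-fold. Other names are marked. The alternatives for scaling were quantiles, a loess on intensity (span 0.3), the median of each array and 7 spike-in probes. The others were normexp (offset 50, on the median signal), 2 other filters on dim probes, the brightest probe, outlier spots kept, a 2-fold threshold and single probes. Keeping bounds under 1-fold as measured differences was added after seeing the data. On a simulated pair of arrays with 12290 genes, 200 of 200 genes changed by 1.5 on the log2 scale were recovered, with 5 false calls. Both simulated arrays took the values and flags of the control array, with a shift and spot noise added. This checked the code only, and the false calls do not give the rate of error in these data. The tools were R 4.3.3 with limma 3.58.1, and Python 3.11.15 with pandas 2.3.3, numpy 2.4.6, matplotlib 3.10.9 and statsmodels 0.14.6.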

Additional observations from a re-analysis of the deposited data

How the results depend on the processing

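No paired analysis was possible because there was 1 array in each group, so leaving out a replicate or blocking on the slide was not possible either. The count of ionocyte genes at least 1.5-fold lower was 1 in the main setting, 0 with normexp background correction, 0 with a 2-fold threshold and 4 when probes were counted one by one, and 1 in each other setting. The count at least 1.5-fold higher was 0 in all 12 settings. The difference between transport genes and fate factors was -0.30 and moved to -0.18 with normexp. In that setting *slc9a3.2* had a bound of -0.13 and entered the median of the transport genes, so the sets of genes differ. Normexp was run with an offset of 50, which makes the ratios of dim probes smaller in size. Without *slc9a3.2*, the normexp median of the transport genes would lie between *atp1a1a.4* at -0.31 and *atp6v1aa* at -0.22. With it the median was -0.22. The share of the offset in the move of the difference was not tested. Of 90 values of single genes under 10 alternatives, 40 were identical to the main value, as in the 4 settings that change only dim or outlier spots. Of the other 50, 7 moved by more than the spot SD of 0.10. *trpv6*, at 0.14, was at -0.20 with its brightest probe, and *foxi3b*, at 0.10, was at -0.04 with normexp. Spike-in scaling moved the median of all genes from -0.01 to 0.07 and the counts over all genes from 492 higher and 966 lower to 666 and 801. Normexp gave 237 and 573, and no filter on dim probes gave 762 and 1242. Keeping bounds under 1-fold as measured differences, chosen after the data were examined, gave *slc9a3.2* a log2 ratio of -0.29 and counts of 486 and 1109. The list medians moved as well. With normexp that of the pronephros markers went from 0.07 to -0.12, and that of the hormones and receptors from -0.02 to -0.13. The keratinocyte median went from 0.23 to 0.10. Those of the Na,K-ATPase and V-ATPase subunits were -0.29 and -0.18 with normexp. Intensities lay under 150, where spot noise was higher, for *slc12a10.2*, *foxi3b*, *slc9a3.2* and the dimmer probes of *trpv6* and *atp1a1a.4*.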
